A study of Mus musculus with 52 samples.

Results

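Genes of the amino acid response that the transcription factor ATF4 is known to switch on, 9 in number, were followed through the wild-type and Tug1-/- tissues of this series: Asns, Phgdh, Psat1, Shmt2, Mthfd2, Slc7a11, Chac1, Trib3 and Atf5. They were chosen by name, and all 9 were found among the 39144 genes listed over the 8 tissues. Tug1 is a long noncoding RNA gene, and in the Tug1-/- mice (Tug1_tm1.1Vlcg) a lacZ reporter takes the place of the gene body and leaves the promoter and exon 1 intact. Polyadenylated RNA was sequenced from 52 samples, all from males, of which 46 lie behind the tables used here.

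Spleen, liver, heart, eyes and primary fibroblasts grown from mouse embryos (MEFs) each had 3 wild-type and 3 Tug1-/- samples, and prostate had 3 wild-type and 2 Tug1-/- samples. These groups shared the mixed background C57BL/6J/129S6 at N3-C57BL/6J with no Neo, where Neo is the selection cassette of the targeted allele. Testes came from 4 wild-type mice on C57BL/6J/129S6 (C57BL/6J, no Neo), from 4 Tug1-/- mice on C57BL/6J/129S6 (C57BL/6J, Neo, LacZ) and from 3 rescue mice of that same background. Rescue mice (Tug1_tm1.1Vlcg; tg(Tug1); CAGs-rtTA3) were Tug1-/- animals fed doxycycline, which turns on a Tug1 transgene that lacks the start of the transcript. In testes the Neo cassette and the genotype cannot be told apart. Doxycycline, CAGs-rtTA3 and the Tug1 transgene come together in the rescue group, so their parts in the rescue comparisons cannot be told apart either. The sources used here do not say that the other testes groups were fed doxycycline. Brain values are means of libraries from another dataset that the authors analysed again, and the labels used here give neither their number nor their background. MEFs came from mid-gestation littermate embryos and were used at an early passage. The authors describe the other tissues as adult, and the exact ages of those animals are not given in the sources used here.

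The values used were 1 per gene and group, the authors' mean in TPM. TPM measures a gene's share of all transcripts and allows for gene length and sequencing depth. No value of a single sample and no depth per sample was available. The authors' own standard errors and p-values were not used, so no spread between replicates is given and no difference below was tested. Differences are given as the log2 ratio of 2 group means after adding 1 TPM to each, which understates differences of genes with few transcripts. A gene was counted in a comparison where either mean reached 1 TPM, and the limit for a large difference was 1.5-fold on that scale, a log2 value of 0.585. In whole tissues, a lower level per cell and fewer cells of the type that makes the transcript cannot be told apart.

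When amino acids run short, or when other stresses act on the cell, kinases phosphorylate the initiation factor eIF2α. General protein synthesis then slows while translation of the Atf4 mRNA increases, and ATF4 switches on genes that make, import and load amino acids. ATF4 binds with partners of the C/EBP family at a composite sequence called the C/EBP-ATF response element or amino acid response element, and it is itself regulated mainly through translation, so its mRNA is a poor measure of its activity.

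The response element was sought because it is the textbook binding sequence of ATF4 in the promoters of such genes. RefSeq promoter windows of the build GRCm38.p6, running from 250 bases before to 50 bases after each start site, were searched on both strands for TGATGNAAN. All 9 genes matched a RefSeq gene by symbol, with 11 windows. The element lay in the windows of 4 of the 9 genes, which was 44.4%, against 4.5% of 27025 genes in the whole promoter table. The 4 stretches are shown in the direction of transcription, with the element in capitals.
Asns, chr6:7693214-7693242, minus strand: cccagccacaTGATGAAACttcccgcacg
Chac1, chr2:119351038-119351066, plus strand: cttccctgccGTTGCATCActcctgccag
Trib3, chr2:152344029-152344057, minus strand: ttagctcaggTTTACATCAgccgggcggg
Slc7a11, chr3:50443652-50443680, minus strand: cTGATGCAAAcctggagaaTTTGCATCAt
Counted from the RefSeq start site, the Asns element began at −23 and read in the direction of the gene. The Chac1 element (at −194) and the Trib3 element (at 14, past that start) read in the opposite direction. Slc7a11 held a pair of elements facing each other, which began at −66 and −48. RefSeq start sites differ from the gene ends in the files' annotation, given with each gene below. By the latter the Asns element lies inside the gene and the Trib3 element before it. The windows of Phgdh, Psat1, Shmt2, Mthfd2 and Atf5 did not hold these letters. Those of Psat1 and Mthfd2 lie well inside the genes by the latter annotation, so the stretches before their annotated starts were not searched. Of the other 11 lists, 5 of 8 matched cytosolic tRNA synthetase genes with reported ATF4 control held the element (Aars, Gars, Iars, Tars and Yars), and 0 of 5 matched synthetases without such reports did. The element lay in 2 of 6 genes of Atf4 and its partners, 1 of 3 secreted hormones, 1 of 5 matched amino acid transporters, 1 of 9 other serine, proline and one-carbon enzymes and 1 of 9 matched chaperones of the endoplasmic reticulum. It lay in none of the matched eIF2α kinase and substrate genes (0 of 5), feedback and mTORC1 inhibitors (0 of 3), NRF2 targets (0 of 4) or mitochondrial chaperones and proteases (0 of 5). The 9 genes and the synthetases with reported control were picked as known ATF4 targets. Their shares are tied to that choice and test nothing. These matches describe sequence, and binding was not measured.

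The deletion was visible in each comparison. Tug1 itself lay between 10.1 and 57.5 TPM in the wild-type means of the 8 tissues, and the Tug1-/- means held from 0.0825% to 0.512% of that level in the 7 tissues other than testes. In testes 2.21% was left, and the rescue mean was 1.60 TPM, far under the wild-type mean of 40.1 TPM. Each labelled tissue carried its defining markers: the 5 fibroblast markers summed to 10807 TPM in wild-type MEFs, the 5 hepatocyte markers to 131107 TPM in liver and the 6 spermatid markers to 49534 TPM in testes.

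Levels in wild-type tissues differed over a wide range. The 9 genes together summed to 1509 TPM in MEFs and 944 TPM in prostate, against 444 TPM in brain, 390 TPM in liver, 349 TPM in eyes, 263 TPM in testes, 221 TPM in spleen and 87.0 TPM in heart. MEFs, which grew in rich medium in culture, had the highest mean of 6 of the 9 genes. Because the spread is unknown, neighbours in each order below may not differ.

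**Figure D1:**
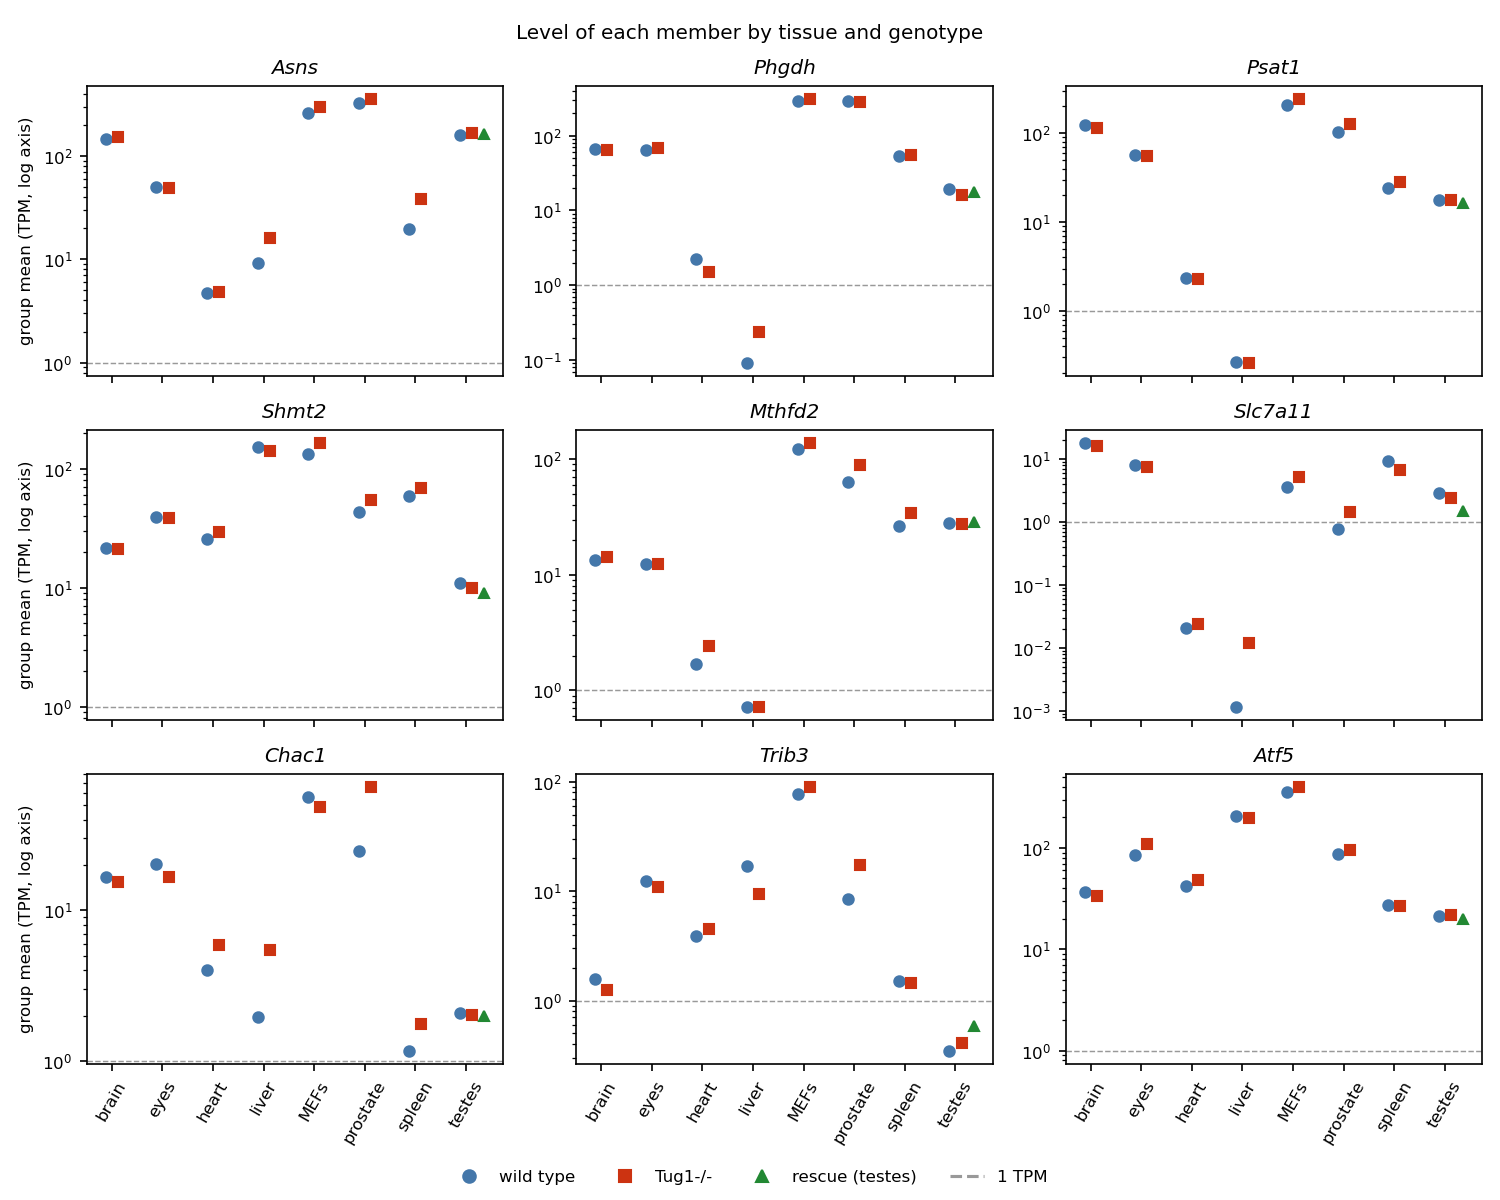
Mean level of each of the 9 genes (TPM, log axis with its own range in each panel) in 8 tissues, with wild type as circles, Tug1-/- as squares and rescue testes as triangles; each point is 1 group mean, and no error is known. Most pairs of points sit close together, while Chac1 in prostate stands at 24.7 TPM in wild type against 65.6 TPM in Tug1-/-, and the liver means of Phgdh, Psat1 and Mthfd2 lie under the dashed line at 1 TPM.

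The first 3 genes make amino acids. Asns encodes asparagine synthetase, which makes asparagine from aspartate and glutamine (chromosome 6, 7675169 to 7693254, minus strand, GRCm38 as in all positions here). Its wild-type mean was 325 TPM in prostate, 261 TPM in MEFs, 161 TPM in testes, 147 TPM in brain, 50.2 TPM in eyes, 19.5 TPM in spleen, 9.18 TPM in liver and 4.70 TPM in heart. Prostate and testes are thus tissues of high Asns, and heart and liver of low.

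Phgdh (chromosome 3, 98313170 to 98339990, minus strand) encodes the first enzyme of serine synthesis from glucose, and Psat1 (chromosome 19, 15904678 to 15947337, minus strand) the enzyme of the next step. Phgdh had 290 TPM in MEFs, 286 TPM in prostate, 65.7 TPM in brain, 64.4 TPM in eyes, 52.8 TPM in spleen, 19.1 TPM in testes, 2.27 TPM in heart and 0.0925 TPM in liver. Psat1 had 207 TPM in MEFs, 122 TPM in brain, 103 TPM in prostate, 57.04 TPM in eyes, 24.2 TPM in spleen, 17.5 TPM in testes, 2.36 TPM in heart and 0.263 TPM in liver. Both enzymes were near the floor in liver, and their wild-type levels went together over the 8 tissues (Pearson r = 0.97 of log2(TPM + 1), a description over 8 group means).

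Shmt2 and Mthfd2 belong to the mitochondrial branch of one-carbon metabolism. Shmt2 (chromosome 10, 127517123 to 127522444, minus strand) encodes the mitochondrial serine hydroxymethyltransferase, which takes a one-carbon unit from serine. Its wild-type mean was 153 TPM in liver, 133 TPM in MEFs, 59.5 TPM in spleen, 43.6 TPM in prostate, 39.1 TPM in eyes, 25.5 TPM in heart, 21.6 TPM in brain and 10.98 TPM in testes. Mthfd2 (chromosome 6, 83305691 to 83325908, minus strand) encodes the mitochondrial enzyme that oxidises that unit further, and it is known for high levels in dividing cells. Mthfd2 had 121 TPM in MEFs, 63.7 TPM in prostate, 28.0 TPM in testes, 26.1 TPM in spleen, 13.5 TPM in brain, 12.3 TPM in eyes, 1.70 TPM in heart and 0.725 TPM in liver. Liver was thus the highest tissue for one enzyme of this branch and the lowest for the other. Across tissues Mthfd2 followed Phgdh (r = 0.93) rather than Shmt2 (r = −0.01).

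Slc7a11 and Chac1 act on cystine and glutathione. Slc7a11 (chromosome 3, 49892526 to 50443614, minus strand) encodes the subunit of the transporter that imports cystine in exchange for glutamate. Its wild-type mean was 17.8 TPM in brain, 9.18 TPM in spleen, 7.95 TPM in eyes, 3.54 TPM in MEFs, 2.83 TPM in testes and 0.770 TPM in prostate, and it was at 0.0209 TPM in heart and 0.00117 TPM in liver. Chac1 (chromosome 2, 119351229 to 119354381, plus strand) encodes an enzyme that breaks down glutathione. Chac1 had 56.1 TPM in MEFs, 24.7 TPM in prostate, 20.2 TPM in eyes, 16.7 TPM in brain, 4.05 TPM in heart, 2.10 TPM in testes, 1.97 TPM in liver and 1.17 TPM in spleen. Slc7a11 was the only one of the 9 genes with its highest mean in brain.

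Trib3 and Atf5 act in signalling and transcription. Trib3 (chromosome 2, 152337422 to 152344032, minus strand) encodes a pseudokinase that feeds back on ATF4. It had 76.8 TPM in MEFs, 17.2 TPM in liver, 12.3 TPM in eyes, 8.40 TPM in prostate, 3.88 TPM in heart, 1.56 TPM in brain, 1.52 TPM in spleen and 0.348 TPM in testes. Atf5 (chromosome 7, 44812256 to 44816658, minus strand) encodes a transcription factor of the same family as ATF4, known for its part in the mitochondrial stress response. Atf5 had 360 TPM in MEFs, 207 TPM in liver, 88.2 TPM in prostate, 85.4 TPM in eyes, 42.6 TPM in heart, 37.2 TPM in brain, 27.3 TPM in spleen and 21.2 TPM in testes. Both stood high in MEFs and liver, and their wild-type levels had the highest correlation of the 36 pairs among the 9 genes (r = 0.98 over 8 means, which share the composition of each tissue). The lowest was between Atf5 and Slc7a11 (r = −0.32), and 11 of the 36 pairs lay above 0.7.

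The means of 4 genes need a reservation that the files cannot settle. Mthfd2 overlaps Gm43890 on its own strand, which reached at most 2.05 TPM. Atf5 overlaps Nup62 (up to 187 TPM) and Il4i1 (up to 9.87 TPM) on the opposite strand, Shmt2 overlaps Ndufa4l2 (up to 57.2 TPM) on the opposite strand, and Slc7a11 overlaps Gm37854 (up to 0.373 TPM) on the opposite strand and Gm37498 (up to 0.0298 TPM) on its own. The library kit does not mark strand, so reads in the shared stretches cannot be told apart.

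Beside the 9 genes, 50 other genes of the ATF4 pathway were followed in 7 lists (kinases, Atf4 and its partners, feedback, transporters, enzymes, synthetases with reported control and hormones). A further 31 genes in 4 contrast lists were not chosen as ATF4 targets (endoplasmic reticulum chaperones of the ATF6 and XBP1 arms, NRF2 targets, mitochondrial chaperones and proteases, and synthetases without reported control).

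The comparison of Tug1-/- with wild type asks whether loss of the locus moves this response in any tissue. Over 8 tissues the 9 genes gave 72 pairs of means, of which 66 reached 1 TPM in either genotype. In 6 of the 66 the difference was past 1.5-fold, 5 of them with the higher mean in Tug1-/-. Over all genes at 1 TPM or more in the same 8 tissues 4.1% of 133572 pairs were past it, 2850 with the higher and 2630 with the lower mean in Tug1-/-. The 6 lay in 3 tissues: Chac1 and Trib3 in prostate, Chac1, Asns and Trib3 in liver, and Asns in spleen. Of the 66 pairs 42 differed by at most 0.2 on the log2 scale. The mean was higher in Tug1-/- in 38 of the 66 and, once differences were centred on each tissue's median over all genes, in 43, with the largest shift in eyes (from 3 to 7 of 9). The smallest difference past the limit was that of Asns in liver (0.74), and the nearest below it was that of Mthfd2 in prostate (0.48).

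**Figure D2:**
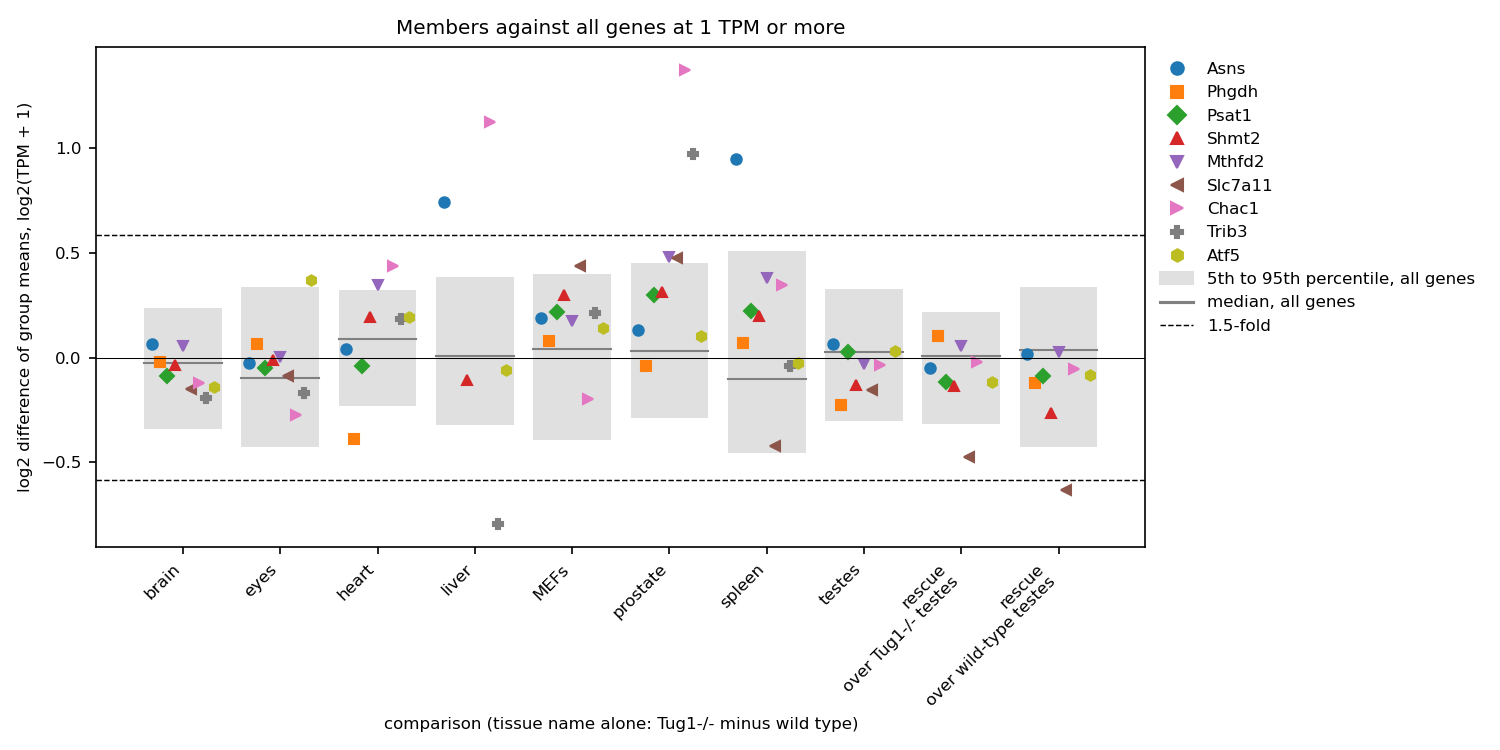
Log2 difference of group means, log2(TPM + 1), for each of the 9 genes that reached 1 TPM in each of 10 comparisons; a tissue name alone stands for Tug1-/- minus wild type, the grey boxes span the 5th to the 95th percentile of all genes, the grey bars are their medians and the dashed lines mark 1.5-fold. Prostate, liver and spleen hold the points beyond the upper line, Trib3 in liver and Slc7a11 in rescue over wild-type testes lie beyond the lower line, and no error is shown for any point.

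In prostate 8 of the 9 genes had the higher mean in Tug1-/-, as did 58.8% of all genes. Past 1.5-fold were 2 of the 9 genes, both with higher means in Tug1-/-, where 4.75% of 15547 genes were past it in either direction. Chac1 had 24.7 TPM in wild type against 65.6 TPM in Tug1-/- (log2 difference 1.38), the largest difference of the 9 genes in any tissue on this scale. With 0.1 TPM added in place of 1 TPM, Chac1 in liver came first (1.43 against 1.41 in prostate). Trib3 had 8.40 TPM and 17.5 TPM (0.97). Mthfd2 followed with 63.7 TPM and 89.1 TPM (0.48), and Slc7a11 with 0.770 TPM and 1.46 TPM (0.48), a level at which few reads decide the mean. With 0.1 TPM added the Slc7a11 difference became 0.84, past the limit.

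Of the remaining prostate genes, Shmt2 had 43.6 TPM and 54.4 TPM (0.31), and Psat1 103 TPM and 128 TPM (0.30). Asns had 325 TPM and 356 TPM (0.13), and Atf5 had 88.2 TPM and 94.9 TPM (0.11). Phgdh, at 286 TPM and 278 TPM, was the one gene of the 9 with a lower mean in Tug1-/- (−0.04). The median difference of the 9 genes was 0.31, against 0.03 for all genes. Contrast lists leaned the same way. Medians were 0.29 for the endoplasmic reticulum chaperones (10 of 11 above 0) and 0.25 for the NRF2 targets (6 of 6). The mitochondrial chaperones and proteases had 0.10 (4 of 6) and the synthetases without reported control 0.05 (8 of 8).

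Of the other ATF4 pathway genes in prostate 2 of 48 (4.17%) were past 1.5-fold, and of the contrast lists 1 of 31 (3.23%), all higher in Tug1-/-. Both shares were under that of all genes, which leaned the same way (514 higher and 224 lower). Ddit3, which encodes the stress transcription factor CHOP, had 44.2 TPM and 74.3 TPM (0.74). Herpud1, a gene of endoplasmic reticulum protein degradation, had 466 TPM and 955 TPM (1.03), and Stc2, a secreted glycoprotein, had 6.34 TPM and 10.0 TPM (0.59). The 7 amino acid transporters at 1 TPM or more, none past the limit, had a median of 0.42, and the eIF2α kinases and their substrate a median of 0.04. Atf4, which names the response and was added outside the rule for named genes after its values were seen, had 624 TPM and 676 TPM (0.12).

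Markers of other cells moved with the prostate groups. Of the 5 seminal vesicle markers 2 were past 1.5-fold, Svs2 with 10039 TPM and 30715 TPM and Svs5 with 9363 TPM and 27896 TPM. Svs4 had 454 TPM and 674 TPM (0.57), while Svs3a, with 17.6 TPM and 12.1 TPM (−0.50), and Svs6, with 61.2 TPM and 43.1 TPM (−0.49), had lower means in Tug1-/-. The list, which Svs2 and Svs5 dominate, summed to 19935 TPM in wild type against 59341 TPM in Tug1-/-. Of the 7 macrophage markers 5 were higher past the limit (sums of 271 TPM and 417 TPM), as were 2 of 5 erythroid markers (sums of 158 TPM and 271 TPM) and 1 of 5 hepatocyte markers, Cyp2e1, with 8.08 TPM and 62.2 TPM. None of the seminal vesicle and macrophage markers was at 0 in either genotype. The 5 prostate epithelium markers summed to 88158 TPM and 80524 TPM, with 1 past the limit, Msmb, at 9.65 TPM and 18.3 TPM. The part of tissue composition in the prostate differences was not tested, and the Tug1-/- group held only 2 samples.

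**Figure D3:**
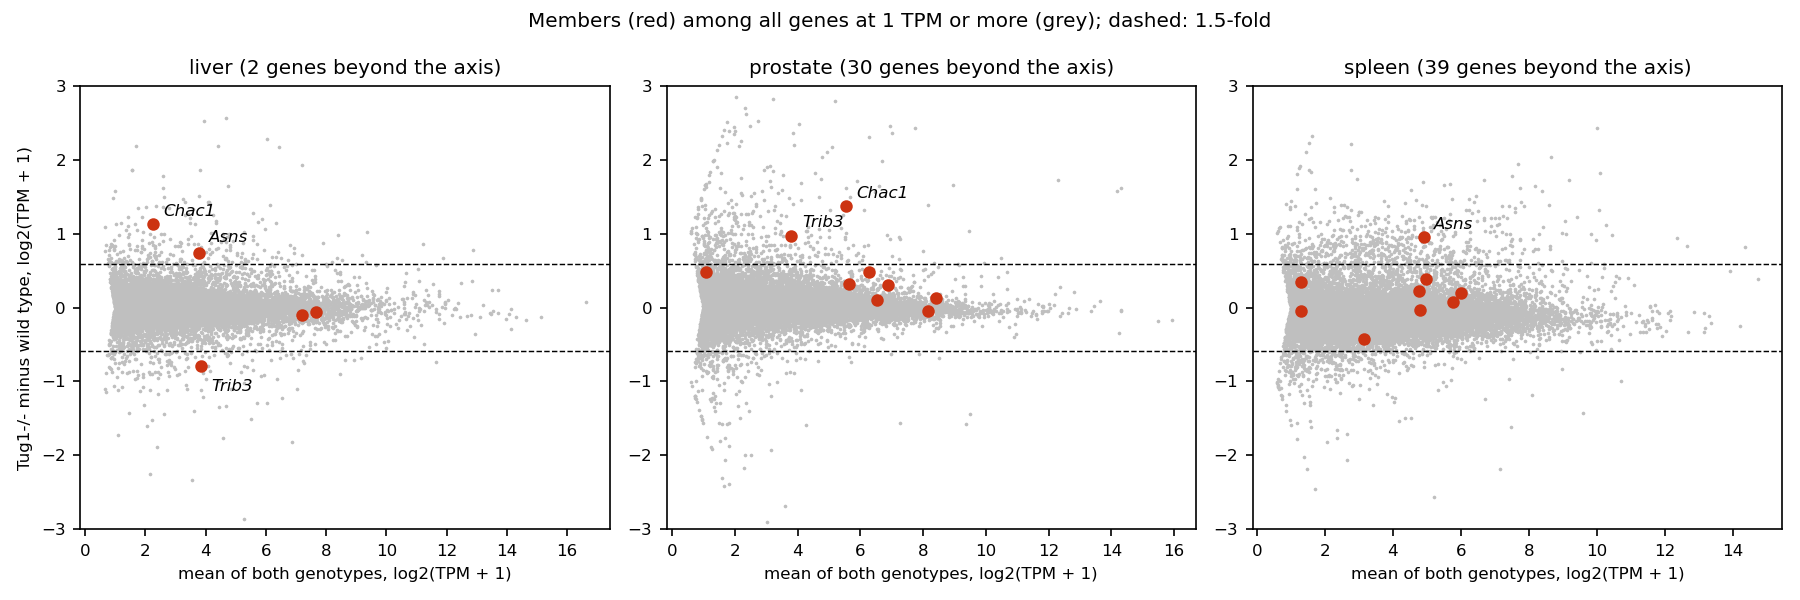
Difference between genotypes (Tug1-/- minus wild type, log2(TPM + 1)) against the mean of both genotypes for all genes at 1 TPM or more (grey) and the members (red) in liver, prostate and spleen; dashed lines mark 1.5-fold and each panel states how many genes lie outside its range. The labelled points are the 6 past the limit: Asns and Chac1 above and Trib3 below in liver, Chac1 and Trib3 above in prostate, and Asns above in spleen.

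In liver the set was divided. Only 5 of the 9 genes reached 1 TPM, and 3 of those 5 were past 1.5-fold, 2 higher and 1 lower in Tug1-/-, where 3.54% of 12121 genes were past it in either direction. Chac1 had 1.97 TPM in wild type against 5.49 TPM in Tug1-/- (1.13), and Asns had 9.18 TPM and 16.05 TPM (0.74). Trib3 went the other way, with 17.2 TPM and 9.47 TPM (−0.80). The means of Shmt2 were 153 TPM and 142 TPM (−0.11), and those of Atf5 207 TPM and 199 TPM (−0.06).

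The 4 genes under 1 TPM in liver were Phgdh (0.0925 TPM and 0.240 TPM), Psat1 (0.263 TPM and 0.262 TPM), Mthfd2 (0.725 TPM in both) and Slc7a11 (0.00117 TPM and 0.0119 TPM). No difference was drawn from them.

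In liver 5 of 42 other ATF4 pathway genes (11.9%) and 4 of 31 contrast genes (12.9%) were past the limit, all higher in Tug1-/-. The 8 of these 9 genes with the largest differences are named. Ddit4, an inhibitor of the growth kinase complex mTORC1, had 5.06 TPM and 20.9 TPM (1.86). Fgf21, a hormone that the liver releases in fasting and amino acid shortage, had 1.71 TPM and 8.29 TPM (1.78). Mthfd1l, of the same mitochondrial one-carbon branch as Shmt2, had 0.666 TPM and 2.45 TPM (1.05).

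Of the 11 chaperone genes of the endoplasmic reticulum 3 were past the limit in liver and 8 were not, beside the 3.54% of all genes. All 11 had the higher mean in Tug1-/-, as did 52.7% of all genes, and their median was 0.46. The 3 were Creld2 with 25.8 TPM and 48.0 TPM (0.87), Herpud1 with 437 TPM and 718 TPM (0.72) and Manf with 26.8 TPM and 43.7 TPM (0.69). These genes answer to the ATF6 and XBP1 arms of the unfolded protein response as well as to ATF4. Hmox1, the heme-degrading target of the oxidative stress factor NRF2, had 19.5 TPM and 35.3 TPM (0.83), and Cebpb, a partner of ATF4, had 29.6 TPM and 47.0 TPM (0.65). None of the 12 tRNA synthetases with reported ATF4 control was past the limit in liver (median 0.02), and Atf4 itself, added likewise, had 113 TPM and 100 TPM (−0.17).

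The 5 hepatocyte markers were not past the limit in liver (sums of 131107 TPM and 136610 TPM). Of the 7 macrophage markers 2 were past it and higher in Tug1-/-, Lyz2 with 87.7 TPM and 154 TPM and Adgre1 with 12.3 TPM and 21.0 TPM, and the list summed to 280 TPM and 432 TPM. Their part in the differences was not tested.

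In spleen Asns stood apart from the other 8 genes. It was the 1 gene of 9 past 1.5-fold, where 6.48% of 17260 genes were past it in either direction, with 19.5 TPM in wild type against 38.7 TPM in Tug1-/- (0.95). Mthfd2 had 26.1 TPM and 34.3 TPM (0.38), Chac1 1.17 TPM and 1.77 TPM (0.35), Psat1 24.2 TPM and 28.3 TPM (0.22) and Shmt2 59.5 TPM and 68.4 TPM (0.20). Slc7a11 was lower in Tug1-/-, with 9.18 TPM and 6.61 TPM (−0.42).

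Phgdh (52.8 TPM and 55.5 TPM), Atf5 (27.3 TPM and 26.7 TPM) and Trib3 (1.52 TPM and 1.45 TPM) had differences of 0.07, −0.03 and −0.04 between the spleen means. The median of the 9 genes was 0.20 where that of all genes was −0.10. Contrast lists lay above that of all genes too. Medians were 0.35 for the endoplasmic reticulum chaperones (11 of 11 above 0) and 0.27 for the NRF2 targets (4 of 6). The mitochondrial chaperones and proteases had 0.09 (6 of 6) and the synthetases without reported control 0.07 (5 of 8).

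Past the limit in spleen were 5 of 47 other ATF4 pathway genes (10.6%) and 2 of 31 contrast genes (6.45%), all higher in Tug1-/-. Nupr1, a stress cofactor, had 13.2 TPM and 28.3 TPM (1.05), the glycine transporter Slc6a9 had 7.07 TPM and 14.1 TPM (0.90) and the leucine transporter subunit Slc7a5 had 36.3 TPM and 58.9 TPM (0.68). Ppp1r15a, which directs removal of the phosphate from eIF2α, had 62.6 TPM and 102 TPM (0.69). Cbs, an enzyme that makes cystathionine from homocysteine and serine, had 0.206 TPM and 1.11 TPM (0.81). The NRF2 targets Gclm and Nqo1 had 26.8 TPM and 47.1 TPM (0.79), and 10.4 TPM and 17.4 TPM (0.70).

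The Tug1-/- spleen mean carried transcripts of exocrine pancreas. All 10 pancreatic acinar markers were past the limit, with sums of 75.7 TPM in wild type against 10067 TPM in Tug1-/-, and 4 of them as follows. Ctrb1 had 3.14 TPM and 2154 TPM, Cela1 62.5 TPM and 1674 TPM, Pnlip 1.91 TPM and 1357 TPM and Cel 0.813 TPM and 527 TPM. Asns is known for high levels in the exocrine pancreas. Erythroid markers were also higher in 5 of 5 (sums of 19833 TPM and 35790 TPM), as were 5 of 6 proliferation markers (sums of 453 TPM and 732 TPM), Mki67 among them with 117 TPM and 233 TPM. Of the 5 hepatocyte markers 3 were lower past the limit (sums of 23.6 TPM and 1.70 TPM). The 4 B cell markers all had lower means, none past it (sums of 4310 TPM and 3237 TPM). The part of these cells in the spleen differences, that of Asns and those of the other listed genes, was not tested. It cannot be measured by leaving out a sample, since no values of single samples were available.

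In MEFs, the one group of cultured cells, the differences were small and mostly in one direction. None of the 9 genes was past 1.5-fold, where 3.89% of 14824 genes were, and 8 of the 9 had a higher mean in Tug1-/- (8 when centred), as did 59.6% of all genes. The means were 3.54 TPM and 5.14 TPM for Slc7a11 (0.44), 133 TPM and 164 TPM for Shmt2 (0.30), 207 TPM and 242 TPM for Psat1 (0.22) and 76.8 TPM and 89.2 TPM for Trib3 (0.21). Asns had 261 TPM and 299 TPM (0.19), Mthfd2 121 TPM and 137 TPM (0.17), Atf5 360 TPM and 397 TPM (0.14) and Phgdh 290 TPM and 306 TPM (0.08). Chac1 was the exception, with 56.1 TPM in wild type against 48.7 TPM in Tug1-/- (−0.20). Of 49 other ATF4 pathway genes 3 (6.12%) were past the limit, and of 31 contrast genes 0, all higher in Tug1-/-: the stress hormone gene Gdf15 with 8.28 TPM and 17.7 TPM (1.01), Cebpb with 16.1 TPM and 25.3 TPM (0.62) and the glutamine transporter gene Slc1a5 with 34.0 TPM and 51.6 TPM (0.59). The median of the 9 genes was 0.19. Contrast lists leaned the same way, with medians of 0.28 for NRF2 targets (6 of 6 above 0) and 0.23 for mitochondrial chaperones and proteases (6 of 6). The synthetases without reported control had 0.18 (8 of 8), and those with it 0.15 (12 of 12). Of the endoplasmic reticulum chaperones 2 of 11 lay above 0 (median −0.09). The 7 macrophage markers summed to 609 TPM in wild type against 678 TPM in Tug1-/-. Lyz2 was past the limit with 183 TPM and 342 TPM (0.90) and Adgre1 had 19.8 TPM and 29.8 TPM (0.57), while the other 5 were lower (from −0.51 to −0.28). Of the 6 Sertoli cell markers 1 was lower past the limit, and the part of these markers was not tested.

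In heart none of the 8 genes at 1 TPM or more was past 1.5-fold, where 2.39% of 14004 genes were. Chac1 had 4.05 TPM in wild type against 5.85 TPM in Tug1-/- (0.44) and Mthfd2 1.70 TPM and 2.44 TPM (0.35), while Phgdh had 2.27 TPM and 1.499 TPM (−0.39). Atf5 had 42.6 TPM and 48.8 TPM (0.19), Shmt2 25.5 TPM and 29.2 TPM (0.19), Trib3 3.88 TPM and 4.54 TPM (0.18), Asns 4.70 TPM and 4.86 TPM (0.04) and Psat1 2.36 TPM and 2.27 TPM (−0.04). Slc7a11, at 0.0209 TPM and 0.0241 TPM, was under 1 TPM. All genes leaned upward in this tissue, with a median of 0.09 and 74.8% above 0, so that 6 of 8 above 0 (5 when centred) is near the background.

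Elsewhere in heart, 2 of 46 ATF4 pathway genes (4.35%) and 1 of 31 contrast genes (3.23%) were past the limit, all higher in Tug1-/-. Ddit4 had 38.6 TPM and 88.0 TPM (1.17), Cebpb 9.63 TPM and 16.1 TPM (0.69) and Hmox1 13.8 TPM and 21.6 TPM (0.62). Ddit4, Cebpb and Hmox1 were thus past the limit in heart and liver alike. So was Zbtb16, of the spermatogonia marker list, with 8.87 TPM and 27.5 TPM in heart (1.53). Beside them in heart, 4 of 6 skeletal muscle markers and 4 of 4 B cell markers were lower past the limit (B cell sums of 40.1 TPM and 18.4 TPM, with the muscle marker Myh4 at 4.24 TPM and 0 TPM), and their part was not tested.

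In eyes 0 of the 9 genes were past 1.5-fold, where 4.37% of 19709 genes were. Atf5 had 85.4 TPM and 111 TPM (0.37) and Chac1 20.2 TPM and 16.6 TPM (−0.27), the 2 widest differences of the set there. Trib3 had 12.3 TPM and 10.8 TPM (−0.17), Slc7a11 7.95 TPM and 7.42 TPM (−0.09) and Phgdh 64.4 TPM and 67.4 TPM (0.06). Psat1 (57.04 TPM and 55.0 TPM), Asns (50.2 TPM and 49.3 TPM), Shmt2 (39.1 TPM and 38.8 TPM) and Mthfd2 (12.3 TPM in both) had differences of −0.05, −0.03, −0.01 and 0.00. Slc1a5, with 30.5 TPM and 50.9 TPM (0.72), was the 1 of 49 other ATF4 pathway genes past the limit, with 0 of 31 contrast genes. Markers of skeletal muscle were higher past the limit in 5 of 6 (sums of 5579 TPM and 9864 TPM) and those of erythroid cells in 3 of 5 (sums of 700.3 TPM and 1921 TPM), and their part was not tested.

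In brain the set was close to level. None of the 9 genes was past 1.5-fold, where 3.4% of 17729 genes were, and 0 of 48 other ATF4 pathway genes and 0 of 31 contrast genes were. The widest difference was that of Trib3, with 1.56 TPM and 1.24 TPM (−0.19). Slc7a11 had 17.8 TPM and 15.9 TPM (−0.15), Atf5 37.2 TPM and 33.6 TPM (−0.14), Chac1 16.7 TPM and 15.3 TPM (−0.12) and Psat1 122 TPM and 115 TPM (−0.09). Shmt2 (21.6 TPM and 21.0 TPM), Phgdh (65.7 TPM and 64.8 TPM), Mthfd2 (13.5 TPM and 14.1 TPM) and Asns (147 TPM and 154 TPM) had differences of −0.03, −0.02, 0.06 and 0.06.

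Testes allowed 3 comparisons, which share their groups, so the values of the 3 genotypes are given side by side as wild type, Tug1-/- and rescue. Asns had 161, 168 and 163 TPM, Mthfd2 28.0, 27.4 and 28.6 TPM, Atf5 21.2, 21.6 and 19.9 TPM and Chac1 2.10, 2.02 and 1.98 TPM. Phgdh had 19.1, 16.2 and 17.5 TPM, Psat1 17.5, 17.9 and 16.5 TPM and Shmt2 10.98, 9.96 and 8.98 TPM. Trib3 was under 1 TPM in all 3 genotypes (0.348, 0.409 and 0.586 TPM). None of the 8 genes at 1 TPM or more was past 1.5-fold between Tug1-/- and wild type, where 3.66% of 22378 genes were, nor between rescue and Tug1-/-, where 2.35% of 22180 genes were.

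Between rescue and wild type 1 of the 8 genes was past the limit, where 4.8% of 22393 genes were. It was Slc7a11, whose means of 2.83, 2.44 and 1.47 TPM gave differences of −0.16 for Tug1-/- over wild type, −0.48 for rescue over Tug1-/- and −0.63 for rescue over wild type. The rescue mean was thus farther from wild type than the Tug1-/- mean.

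Past the limit in Tug1-/- over wild-type testes were 4 of 45 other ATF4 pathway genes (8.89%), 1 higher and 3 lower, and 1 of 31 contrast genes (3.23%), higher. Cbs had 1.57 TPM in wild type, 6.13 TPM in Tug1-/- and 0.934 TPM in rescue (1.47 for Tug1-/- over wild type and −1.88 for rescue over Tug1-/-), and Cth, the next enzyme from cystathionine to cysteine, had 3.88, 2.24 and 0.742 TPM. Wars, the tryptophan tRNA synthetase gene, had 53.3, 32.7 and 27.0 TPM, and was (−0.69 for Tug1-/- over wild type) the 1 of 12 synthetases with reported ATF4 control past the limit in any of the 8 tissues. Hmox1 had 11.4 TPM in wild type, 18.2 TPM in Tug1-/- and 17.6 TPM in rescue, and Slc1a5 had 15.4 TPM and 9.70 TPM in wild type and Tug1-/-. Nqo1 was past the limit only between rescue and wild type, with 7.14 TPM in wild type and 3.87 TPM in rescue (−0.74). Spermatid markers were not past the limit in Tug1-/- testes (0 of 6), while 3 of 5 Leydig cell markers were higher (sums of 483 TPM and 742 TPM), as were 5 of 6 skeletal muscle markers (sums of 4.24 TPM and 43.0 TPM). The erythroid markers Hbb-bs (16.6, 9.18 and 9.66 TPM in wild type, Tug1-/- and rescue) and Hba-a1 (6.36, 3.28 and 3.01 TPM), 2 of the 5 in that list, were lower past the limit in both Tug1-/- and rescue than in wild type. Between rescue and Tug1-/-, 5 of 6 skeletal muscle markers (sum of 3.85 TPM in rescue) and 2 of 5 Leydig cell markers (639 TPM) were lower past the limit. Between rescue and wild type, 3 of 6 Sertoli cell markers were higher past it (sums of 177 TPM and 276 TPM), and 1 of 5 Leydig cell markers. Their part was not tested.

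Read by gene rather than by tissue, Asns had the higher mean in Tug1-/- in 7 of 8 tissues (also 7 when centred, though 2 tissues turned), but past 1.5-fold only in liver and spleen, and its median difference was 0.10. Mthfd2 was higher in 6 of the 7 tissues where it reached 1 TPM, with no difference past the limit (from −0.03 to 0.48). Chac1 ranged from −0.27 in eyes to 1.38 in prostate, and Trib3 from −0.80 in liver to 0.97 in prostate. Phgdh kept between −0.39 and 0.08 and was higher in 3 of 7 tissues (4 when centred). Trib3 in liver and prostate is the clearest case of opposite directions in the set, though the difference between the tissues was not tested.

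**Figure D4:**
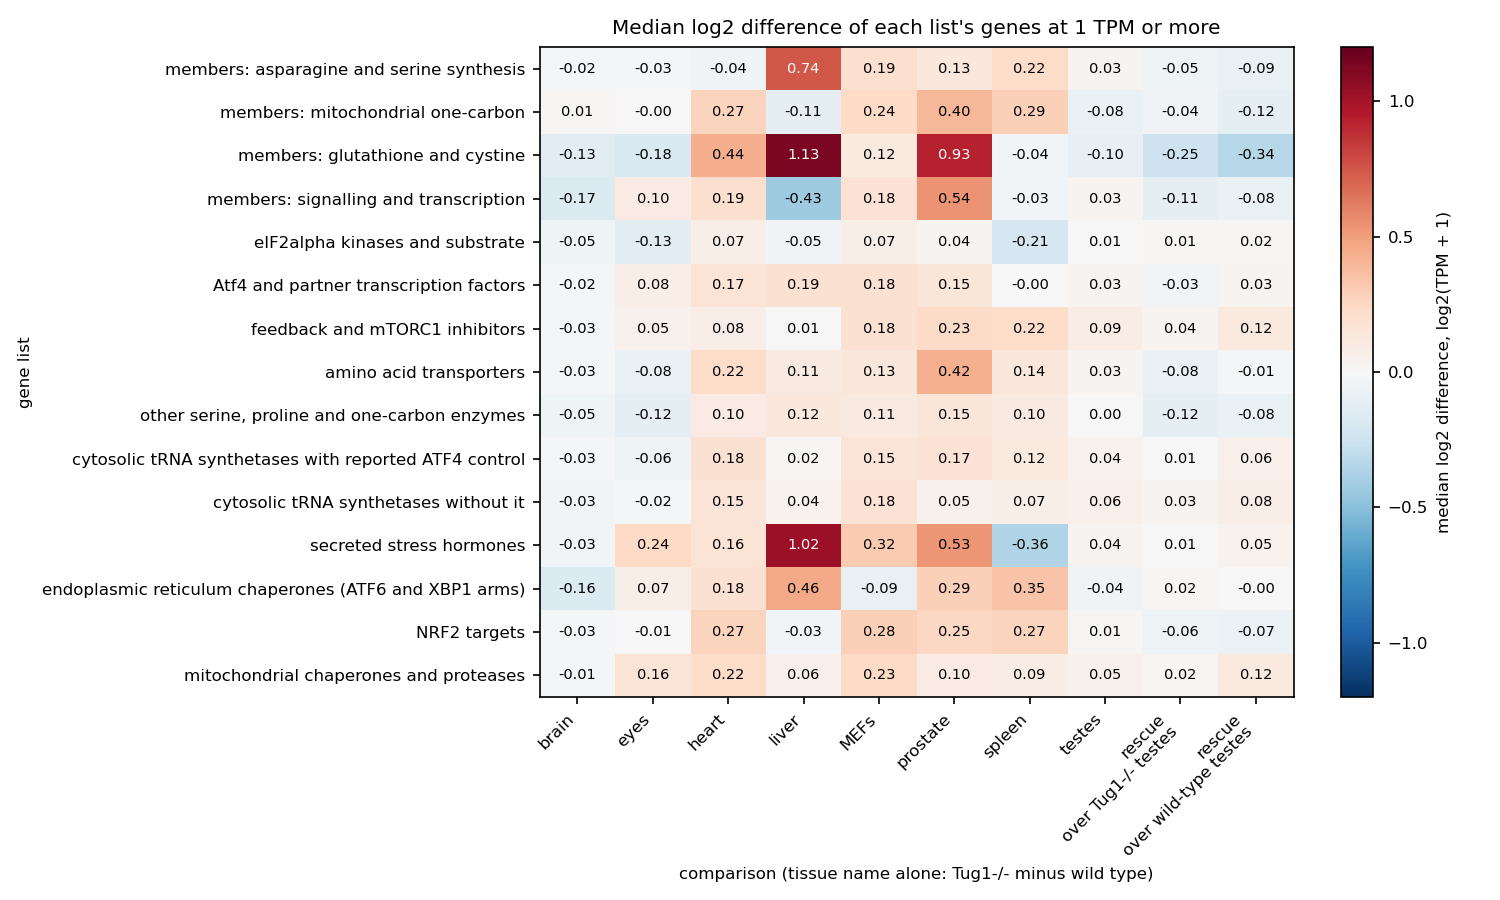
Median log2 difference, log2(TPM + 1), of the genes at 1 TPM or more in each of 15 lists (the 9 members in 4 lists by role, above 11 other lists) in the 10 comparisons, with the value printed in each cell; cells that rest on 1 gene are the asparagine and serine, one-carbon, and glutathione and cystine rows in liver, the glutathione and cystine row in heart, the signalling row in the testes comparisons and the hormone row in brain. The eIF2α kinase row stays between −0.21 and 0.07, while the secreted hormones reach 1.02 in liver and the glutathione and cystine members reach 0.93 in prostate and, for Chac1 alone, 1.13 in liver.

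Upstream of ATF4, 0 of 5 genes (the 4 eIF2α kinase genes and Eif2s1, the gene of the phosphorylated subunit) were past 1.5-fold in any comparison, and so were 0 of the 8 synthetases without reported ATF4 control. With 2.35% to 6.48% of all genes past the limit in a comparison, lists of this size would hold few or none, and nothing is read from these counts. The phosphorylation of eIF2α and the amount of ATF4 protein were not measured.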

How the data were processed

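Libraries were made with a polyA protocol that does not mark strand and were sequenced as paired ends. The authors aligned reads to GRCm38 (mm10) with STAR and the GENCODE annotation, counted uniquely mapped reads with featureCounts, dropped a gene unless a replicate held at least 3 of its reads, and deposited the mean TPM of each group. The tables also hold the authors' own comparisons, fold changes with standard errors, test statistics and p-values from DESeq2 and fdrtool, and these columns were not used here. Base means were likewise not used. The second table stacks 7 tissues, so its TPM columns hold each tissue's mean values in turn.

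From the deposited means, log2((TPM + 1)/(TPM + 1)) was computed for each gene in 10 comparisons with Python 3.11.15, numpy 2.4.6 and pandas 2.3.3, for genes at 1 TPM or more in either group. The computation was tested on simulated data. Group means alone give no replicate error, no test and no depth per sample, and the precision of a mean is unknown. The authors' standard errors and p-values, which rest on replicates, were left out. Alternatives were a pseudocount of 0.1 TPM, no filter or a filter of 5 TPM, limits of 1.25-fold and 2-fold, and centring on the median of all genes.

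Groups came from the sample labels. The members and all gene lists (7 lists of the ATF4 pathway, 4 contrast lists and 22 marker lists) were chosen with earlier results of these data known. Named genes were the 9 members, every other gene of the 11 lists past 1.5-fold (in a comparison with more than 8, the 8 largest), Tug1, and for each member the gene most like it. Named beside this rule were genes of the marker lists, genes that overlap a member, the synthetases that held the response element, Eif2s1 and Atf4. Promoter sequences came from RefSeq (GRCm38.p6), matched by symbol or synonym. The 6 F1 hybrid testes samples were not analysed here.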

Additional observations from a re-analysis of the deposited data

How the results depend on the processing

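Alternatives were run for the 9 genes, and not for the other listed or marker genes. Among the 9 genes no difference past 1.5-fold changed direction under any alternative. Centring turned the sign of 9 of the 66 differences in the 8 tissues, the largest of them 0.09 in size. At the lower of the alternative limits the number of the 9 genes past it became 1 in eyes, 3 in heart, 1 in MEFs, 4 in prostate, 4 in spleen and 1 for rescue over Tug1-/- testes, where 15.3%, 8.46%, 15.5%, 12.9%, 20.4% and 7.20% of all genes were past it. At the higher limit, 2-fold, it became 1 in liver, 1 in prostate, 0 in spleen and 0 for rescue over wild-type testes (all genes 0.792%, 1.74%, 1.65% and 2.12%). With a pseudocount of 0.1 TPM it became 3 in prostate (Slc7a11 from 0.48 to 0.84) and 1 for rescue over Tug1-/- testes (Slc7a11 at −0.69), with 7.99% and 4.65% of all genes, and with a filter of 5 TPM it became 0 for rescue over wild-type testes (3.33% of all genes). Of the 60 counts under an alternative 48 were equal to the value reported or within 1.5 times of it, that of 3 in prostate among them, and centring changed no count. Most of the 48 were counts of 0 that stayed 0. A count of 0 could not rise under the 2-fold limit or the 5 TPM filter, so the 48 are no measure of stability. No paired analysis was possible because the tables hold group means without values of single samples, and for the same reason no replicate could be left out. Differences in prostate rest on 2 Tug1-/- samples, and means under about 1 TPM rest on few reads.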

Other observations

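The gene outside the set whose log2(TPM + 1) profile was most like that of each member was sought over 17 group means and 30081 genes. These were Tm9sf2 for Asns (Pearson r = 0.96), Yeats2 for Phgdh (0.99), Trappc4 for Psat1 (0.98), Prdx1 for Shmt2 (0.99), Mlec for Mthfd2 (0.98), Usp35 for Slc7a11 (0.98), Zfp9 for Chac1 (0.94), Cald1 for Trib3 (0.93) and Furin for Atf5 (0.95). The 17 means come from 8 tissues, so the genotypes of a tissue are near copies of each other, and the best of so many genes is high by selection. The values are a description.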
